A study of Homo sapiens with 14 samples.

Results

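The RNA of A549 cells that was set aside before any pulldown did not look alike in all of its libraries. Input replicates 4 and 5 carried more of many miRNAs made from the imprinted 14q32 locus than Input replicates 1 to 3. They also carried more of miR-16-5p, miR-365a-3p, miR-194-5p and miR-200b-3p, and less of miR-615-3p, miR-1269b and let-7i-5p. Most other let-7 members were lower as well on the scale used here. With libraries scaled by their total counts, 4 of the 9 let-7 members were lower without overlap. Levels here are normalized counts, which are read counts divided by a size factor of the library (the median of ratios over the miRNAs measured). Differences are the mean of log2(normalized count + 1) in replicates 4 and 5 minus that in replicates 1 to 3, so that 1 on this scale is 2-fold, and a positive value means higher in replicates 4 and 5.

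A549 is an established human lung adenocarcinoma line, and all libraries here came from it, untreated and grown in DMEM with serum. Total RNA was decapped and heat-denatured, a portion was kept as Input, and the rest was bound with an antibody against N7-methylguanosine (m7G), which gave the IP libraries. The series held 14 libraries, of which 5 were Input, 5 were IP and the others belonged to a second assay not used here. The 2 sets of Input libraries, replicates 1 to 3 and replicates 4 and 5, were chosen from the measured counts of the immunoprecipitation experiment, in which a principal component of its libraries had parted them. Input counts entered that choice, and IP counts may have entered it. They are therefore described without a test, and no p-value is given. The labels give neither a date nor a batch for either set, nor say whether replicates came from separate cultures, so growth, RNA handling, library preparation and sequencing cannot be told apart as sources of the difference, and the spread between replicates may be technical.

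Of 2588 mature miRNAs in the table, 766 had at least 10 counts in at least 2 of the 5 Input libraries, and 515 of these had at least 10 in all 5. The Input libraries held 7097379 to 14874685 counts, the smallest being replicate 1, and 1048 to 1138 miRNAs were detected in replicates 1 to 3 against 1270 and 1308 in replicates 4 and 5. A count of 0 still allowed a share of up to 4.23e-05% in the smallest library (3 counts, counting error only). miR-21-5p, an abundant miRNA in many carcinomas, took 40.4%, 46.3% and 45.8% of the counts in replicates 1 to 3 and 38.0% and 41.0% in replicates 4 and 5. Wilson intervals at 95% were narrow, 40.38% to 40.45% at replicate 1, the smallest library, and cover counting error only.

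A miRNA is cut from 1 arm of a hairpin RNA by Drosha and Dicer and loaded into an Argonaute protein, where its seed (bases 2 to 8) pairs with target mRNAs. The arm at the 5′ end is called 5p and the other 3p, and one of them is usually far more abundant. Many hairpins lie together in clusters and are cut from 1 long transcript. The let-7 family holds back growth genes such as RAS and HMGA2 in lung cells, and the 14q32 cluster is transcribed from the maternal chromosome only, beside the lncRNA gene MEG3.

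Mature sequences are shown for the miRNAs with the largest differences, since they show that few of them share a seed. All are from RefSeq (GRCh38.p14), in the 5′ to 3′ direction, with the seed in capitals. The first group was higher in Input replicates 4 and 5.
miR-409-5p: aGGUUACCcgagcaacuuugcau
miR-183-3p: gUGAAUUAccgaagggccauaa
miR-382-3p: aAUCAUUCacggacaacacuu
miR-758-3p: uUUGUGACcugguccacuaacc
miR-365a-3p: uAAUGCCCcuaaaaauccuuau
miR-365b-3p: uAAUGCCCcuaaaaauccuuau
miR-329-3p: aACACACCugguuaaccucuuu
miR-342-3p: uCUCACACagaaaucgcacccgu
miR-382-5p: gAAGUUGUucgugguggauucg
miR-663a: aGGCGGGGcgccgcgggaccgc
miR-494-3p: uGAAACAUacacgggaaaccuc
miR-16-5p: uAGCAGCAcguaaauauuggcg

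miR-365a-3p and miR-365b-3p have the same mature sequence, and their counts are almost the same in every library, so they stand for 1 measurement. In the GENCODE v44 annotation, miR-409-5p lies in an intron of the lncRNA gene MEG9 (chr14:101065314-101065336, + strand) and miR-382-5p in an exon of it (chr14:101054316-101054337, + strand). The hairpin of miR-494-3p lies in an intron of MEG8 (chr14:101029681-101029702, + strand). miR-342-3p, on the same chromosome but outside that locus, lies in an intron of the protein-coding gene EVL (chr14:100109715-100109737, + strand). miR-183-3p lies outside annotated genes (chr7:129774928-129774949, - strand). One of the 2 hairpins of miR-16-5p lies in an intron of SMC4 (chr3:160404754-160404775, + strand).

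The second group was lower in Input replicates 4 and 5.
miR-615-3p: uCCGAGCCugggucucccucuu
miR-1269b: cUGGACUGagccaugcuacugg
miR-1247-3p: cCCCGGGAacgucgagacuggagc
miR-5100: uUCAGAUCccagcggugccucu
miR-3917: gCUCGGACugagcagguggg
miR-23a-5p: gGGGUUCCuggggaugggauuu
miR-4746-5p: cCGGUCCCaggagaaccugcaga
miR-3182: gCUUCUGUaguguaguc
miR-6744-5p: uGGAUGACaguggaggccu
miR-4443: uUGGAGGCguggguuuu

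miR-615-3p lies in introns of HOXC4 and HOXC5 (chr12:54034010-54034031, + strand), within the HOXC genes that set position along the body axis. miR-1269b lies opposite an intron of ARHGAP44 (chr17:12917313-12917334, - strand), and miR-1247-3p lies in an exon of the lncRNA gene DIO3OS (chr14:101560326-101560349, - strand), at the far end of the imprinted locus that holds the 14q32 cluster. miR-3917 lies in an exon of STMN1 (chr1:25906384-25906403, - strand) and miR-3182 in an intron of CDH13 (chr16:83508349-83508365, + strand). miR-3182 and miR-4443 (chr3:48196572-48196588, + strand, outside annotated genes) are only 17 bases long, and miR-148a-5p and miR-6842-3p, which also belong to this group, are named without a sequence.

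The pairs of libraries are described next, on the values that chose the sets. Among the 344 miRNAs with a mean of at least 100 normalized counts, called well covered below, the pairs 1 and 2, 1 and 3, 2 and 3, and 4 and 5 had 3, 2, 2 and 0 miRNAs over 2-fold apart. The 6 pairs across the sets had 67 to 75. The median absolute log2 difference of a pair was 0.13 to 0.21 within a set and 0.50 to 0.52 across the sets for these miRNAs, and 0.219 to 0.339 against 0.642 to 0.703 over all 766. Libraries of a set differed by far more than counting error alone, with a chi-square per degree of freedom of 29.1 to 171. Each library was counted as a replicate, though the spread between them may be technical.

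**Figure D1:**
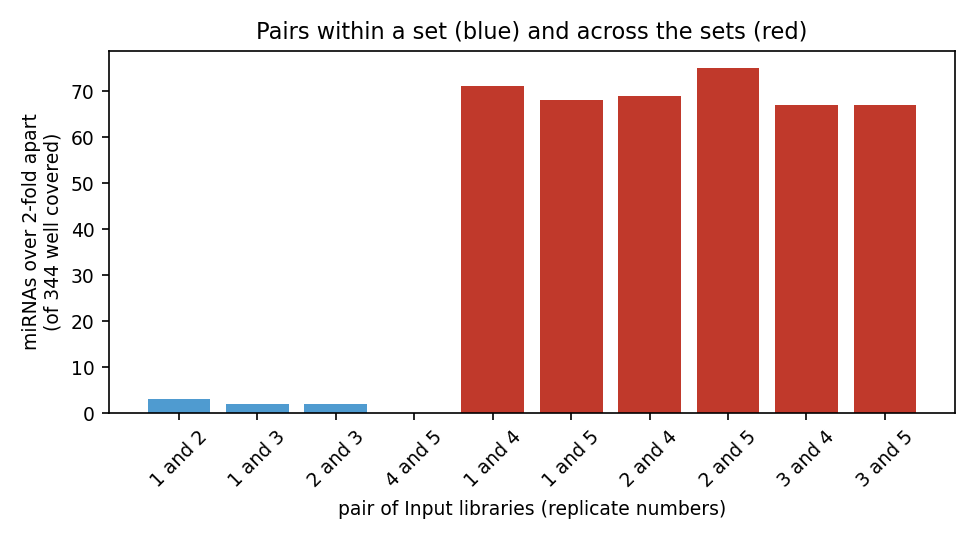
Number of well-covered miRNAs (344, mean of at least 100 normalized counts) over 2-fold apart in each pair of Input libraries, named by replicate number on the x axis. Blue bars are pairs within a set and red bars pairs across the sets; the blue bars reach 3 and the red bars stand between 67 and 75.

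In 451 of the 766 miRNAs (58.9%), every library of one set lay above every library of the other, 231 of them higher and 220 lower in replicates 4 and 5. When a difference of at least 1 on the log2 scale was asked for as well, 103 miRNAs were higher (13.4%) and 76 lower (9.92%) in replicates 4 and 5, 179 in all (23.4%). The choice of the sets used these same Input counts, so the numbers describe the 2 sets and are read no further. miRNAs that met both conditions are called parted from here on. Of the 103, 26 had fewer than 10 counts in each of replicates 1 to 3, and of the 76, 12 had fewer than 10 in both replicates 4 and 5. These passed the count filter only through the set in which they were high. Among the well-covered miRNAs 34 were parted higher and 32 lower, and their differences ran from -2.77 to 1.87. The median absolute difference was 0.49, against a median SD within a set of 0.15.

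The split of the parted miRNAs between the directions depended on the scaling. Higher ones made up 57.5% of them with median-of-ratios factors (103 and 76), 49.4% with TMM factors (86 and 88), 79.3% with total counts (169 and 44) and 73.3% with total counts that leave out miR-21-5p (143 and 52). Total counts moved the median of all miRNAs from 0.07 to 0.42, a shift of 0.35, so every log2 difference below is relative to the typical miRNA of the table. Summed levels in CPM (counts scaled to the same library total) are on the total-count scale instead and hold that shift.

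**Figure D2:**
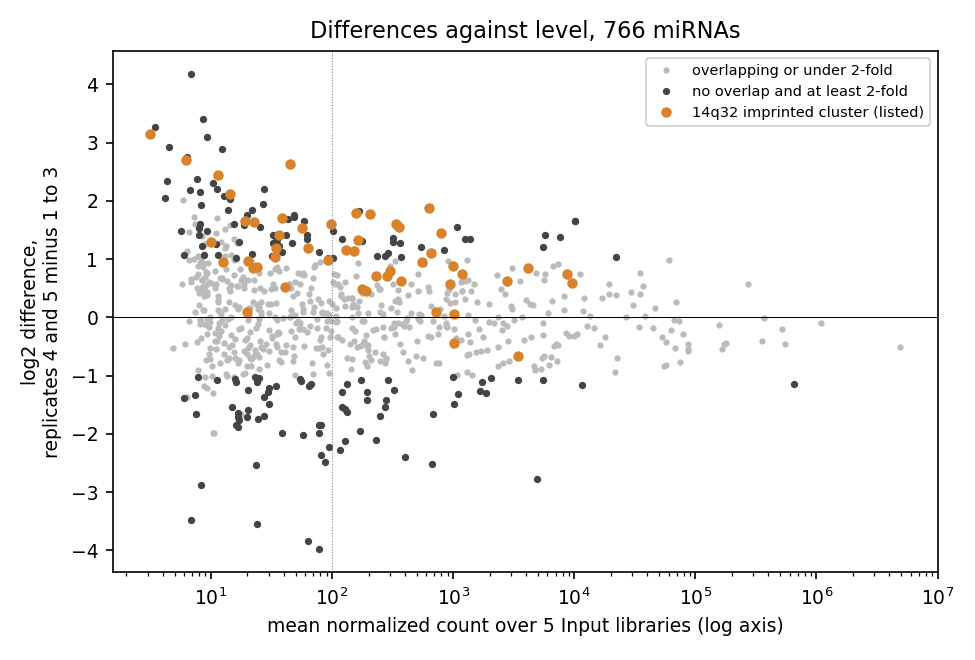
log2 difference between Input replicates 4 and 5 and replicates 1 to 3 (y axis) against the mean normalized count over the 5 libraries (x axis, log scale) for 766 miRNAs. Black points are parted miRNAs, grey points the others, and orange points the listed 14q32 miRNAs, which sit mostly above 0 (median 1.01); the dotted line marks a mean of 100.

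miR-409-5p, from the 14q32 cluster, had the largest positive difference among well-covered miRNAs. Its normalized counts were 271, 309 and 350 in Input replicates 1 to 3 and 1086 and 1167 in replicates 4 and 5, a difference of 1.87 ± 0.14 (SE, n = 3 and 2). Replicates 4 and 5 lay 3.65-fold above the others in the mean, with no overlap.

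miR-183-3p, the rare arm of the miR-183 hairpin, had 85.7, 66.2 and 94.1 normalized counts in replicates 1 to 3 and 341 and 243 in replicates 4 and 5. The difference was 1.82 ± 0.26 (SE). Replicate 5 lay below replicate 4, and both lay above the other 3.

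miR-365a-3p, which shares a transcript with miR-193b, was the most abundant of the 12 largest positive differences. It had 6437, 5354 and 4558 normalized counts in replicates 1 to 3 and 18192 and 15675 in replicates 4 and 5, a difference of 1.65 ± 0.20 (SE). miR-342-3p, carried by the EVL gene, had 577, 691 and 551 in replicates 1 to 3 and 1842 and 1729 in replicates 4 and 5. For miR-16-5p, a regulator of cyclins and BCL2, the values were 3348, 3469 and 3425 in replicates 1 to 3 against 8678 and 9582 in replicates 4 and 5. The difference was 1.42 ± 0.06 (SE), and the libraries of each set lay close together.

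The remaining members of this group were less abundant. miR-382-3p had 85.7, 65.3 and 84.0 normalized counts in replicates 1 to 3 and 296 and 251 in replicates 4 and 5. miR-758-3p had 80.5, 102 and 131 against 318 and 389, and miR-329-3p had 182, 222 and 158 against 547 and 579.9. All 3 come from the 14q32 cluster, as do miR-382-5p and miR-494-3p. miR-382-5p had 128, 242 and 249 in replicates 1 to 3 and 583 in each of replicates 4 and 5. miR-494-3p had 555, 402 and 459 against 1247 and 1306. In both of these, as in the others, every library of replicates 4 and 5 was above the others. miR-663a, an entry whose sequence resembles ribosomal RNA, had 66.8, 62.5 and 46.5 in replicates 1 to 3 and 177 and 153 in replicates 4 and 5.

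miR-615-3p had the largest negative difference of any well-covered miRNA. Its normalized counts were 8883, 6044 and 7377 in Input replicates 1 to 3 and 1089.7 and 1056 in replicates 4 and 5, a difference of -2.77 ± 0.21 (SE). In the mean, replicates 1 to 3 lay 6.84-fold above replicates 4 and 5.

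miR-1269b, a miRNA with a close relative in miR-1269a, had 969.7, 1074 and 929.6 normalized counts in replicates 1 to 3 and 172 and 174 in replicates 4 and 5. The difference was -2.51 ± 0.08 (SE). miR-1247-3p had 557, 572 and 654 in replicates 1 to 3 and 109.9 and 114 in replicates 4 and 5. Both were tight within each set, and the sets did not overlap.

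miR-23a-5p, the rare arm of the miR-23a hairpin, had 327, 332 and 339 normalized counts in replicates 1 to 3 and 85.4 and 68.7 in replicates 4 and 5. miR-4746-5p had 264, 214 and 253 against 59.4 and 65.3. miR-148a-5p, the rare arm of the miR-148a hairpin, had 421, 311 and 299 against 99.3 and 111. All of these were lower in replicates 4 and 5 without overlap. miR-3182 was the most uneven, with 583 in replicate 1, 1188 and 1046 in replicates 2 and 3, and 282 and 286 in replicates 4 and 5. Of the others, miR-5100 had 129 to 214 in replicates 1 to 3 against 28.5 and 40.5, and miR-3917 had 166 to 198 against 43.1 and 41.2. miR-6744-5p, miR-6842-3p and miR-4443 had 130.5 to 199 in replicates 1 to 3 and 50.5 to 60.5 in replicates 4 and 5.

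**Figure D3:**
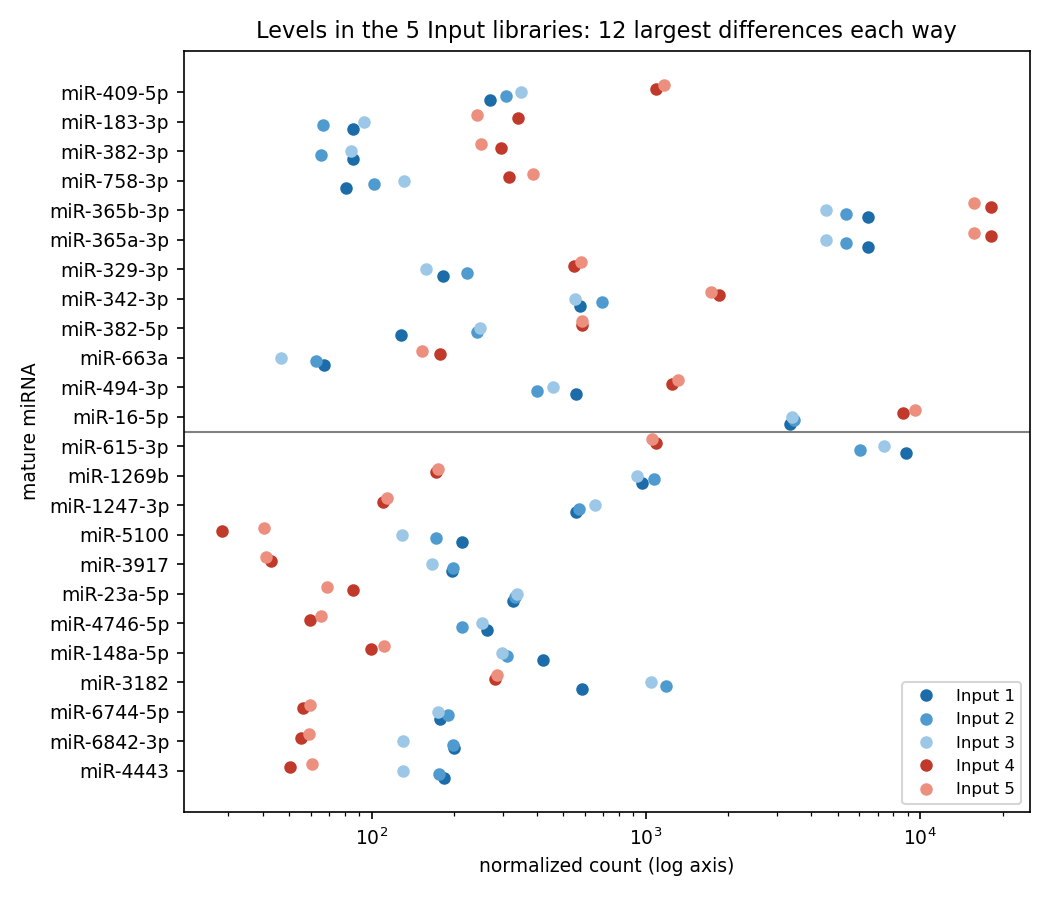
Normalized counts (x axis, log scale) of the 12 well-covered miRNAs with the largest positive differences (above the line) and the 12 with the largest negative ones (below it), 1 point per Input library; blue points are replicates 1 to 3 and red points replicates 4 and 5. The blue and red points do not overlap in any of the 24, as the choice of these miRNAs requires; miR-615-3p runs from 6044 to 8883 in blue against 1056 and 1089.7 in red.

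The limit of 2-fold was not a natural gap. Just inside it, miR-1287-5p differed by 1.02 and miR-92b-5p by -1.03, and just outside it miR-138-5p differed by 0.99 and let-7d-3p by -0.99.

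The most abundant miRNAs differed less, with the exception of let-7i-5p. The 10 most abundant together took 78.6%, 80.9% and 80.2% of the counts in replicates 1 to 3 and 75.7% and 77.1% in replicates 4 and 5. miR-21-5p had 4914401, 6026167 and 5790718 normalized counts in replicates 1 to 3 and 3625845 and 4191460 in replicates 4 and 5, a difference of -0.51 ± 0.14 (SE). miR-100-5p and miR-99b-5p, which share a seed, overlapped between the sets with differences of -0.09 and -0.01. miR-27b-3p was higher in replicates 4 and 5, by 0.57, while miR-10a-5p (-0.44), miR-30a-5p (-0.45) and miR-92a-3p (-0.20) were lower. Under total counts miR-10a-5p differed by -0.09, miR-30a-5p overlapped (-0.10), miR-21-5p overlapped (-0.16) and miR-92a-3p turned to 0.15 with overlap.

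Of the 9 let-7 members, 8 were lower in both of replicates 4 and 5 than in any of replicates 1 to 3, against 220 of all 766 miRNAs, and the median difference of the family was -0.46, against 0.07 over all. All share the seed, and they differ in a few bases beyond it, which are shown here for 4 of them because the members did not differ alike.
let-7i-5p: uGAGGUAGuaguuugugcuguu
let-7b-5p: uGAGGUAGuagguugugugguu
let-7a-5p: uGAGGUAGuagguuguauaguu
miR-98-5p: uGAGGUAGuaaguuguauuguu

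let-7i-5p (chr12:62603691-62603712, + strand, in an intron of the lncRNA gene MIRLET7IHG) had 959248, 808433 and 758869 normalized counts in replicates 1 to 3 and 353567 and 409845 in replicates 4 and 5. It was the one parted member, with a difference of -1.14 ± 0.15 (SE), and its share of all counts was 7.89%, 6.21% and 6.0% in replicates 1 to 3 against 3.71% and 4.01%. let-7b-5p had 71682, 66007 and 62111 against 37469 and 37002, a difference of -0.84. let-7a-5p, the second most abundant member, had 676941, 573164 and 592676 against 435897 and 453834, a difference of -0.46. let-7d-5p (-0.68), let-7c-5p (-0.47), let-7g-5p (-0.46), let-7f-5p (-0.40) and let-7e-5p (-0.22) were lower as well. miR-98-5p went the other way, with 2809 to 2867 in replicates 1 to 3 and 2926 and 3591 in replicates 4 and 5. The size of the family's difference depended on the scaling, with a median of -0.57 under TMM factors and -0.11 under total counts. Under total counts 4 of the 9 were lower without overlap and none was parted. Family members differ by few bases, and reads that fit several loci were counted at each, so part of their counts may be shared.

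Of the 29 lists of related miRNAs looked at, that of the 14q32 cluster was the longest and held the most parted members. Its share of parted members was not the highest, since 4 of 6 stromal and endothelial markers and 3 of 6 miR-200 members were parted. The parted stromal and endothelial markers include miR-199a-5p, which passed the count filter only through replicates 4 and 5. Of 56 listed members of the 14q32 cluster 50 passed the count filter. Of these, 24 were parted higher and 0 lower, 42 were higher without overlap and 2 lower, and the median difference was 1.01. Over all 766 miRNAs 13.4% were parted higher, 231 were higher without overlap and the median was 0.07. The means of the 24 parted members ran from 3.16 (miR-380-3p) to 794 (miR-494-3p) normalized counts, and many were under the well-covered limit of 100. miR-380-3p, with no count in replicates 1 to 3, passed the count filter only through replicates 4 and 5. Other rare members, such as miR-770-5p (mean of 6.21), miR-154-5p (11.4) and miR-655-3p (14.3), may have passed in the same way. The 24 and the median of 1.01 include such members and are read as description only. The median was 0.91 under TMM factors and 1.36 under total counts. The list was drawn up with earlier results of these data known, and the sets were themselves chosen on these libraries. The summed level of the 56 members was 3055, 2445 and 2591 CPM in replicates 1 to 3 and 5339.8 and 5126 in replicates 4 and 5. When hairpins of the RefSeq table within 10 kb of each other were joined along the genome, the 2 resulting clusters of this locus had 45 members past the filter, with a median of 1.14 and 25 parted higher, and 11 members, with a median of 0.75 and 4 parted higher. Neither held a member parted lower.

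The abundant members of the locus differed by less than 2-fold. miR-381-3p had 9179.7, 7261 and 7602 normalized counts in replicates 1 to 3 and 11735 and 12229 in replicates 4 and 5, and miR-127-3p had 7718, 6462 and 6554 against 11501 and 11668. miR-654-3p, of middling level, was parted with 384 to 502 against 891 and 1026. Among the listed members, miR-370-3p and miR-543 were lower without overlap. miR-370-3p had 4622, 3662 and 3714 in replicates 1 to 3 and 2583 and 2429.6 in replicates 4 and 5, a difference of -0.67, and miR-543 differed by -0.44. miR-1247-3p, parted lower as given above, lies at the far end of the same imprinted locus and is not on the list. miR-380-3p had no count in replicates 1 to 3, so that replicates 4 and 5 lay at least 2.16-fold higher (against 3 counts per library). Its level there was only 8.95 and 6.87 normalized counts.

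The counts of the smaller lists stand beside the same background: of all 766 miRNAs 13.4% were parted higher and 9.92% lower, 231 were higher and 220 lower without overlap, and the median was 0.07. In the miR-200 family, which keeps epithelial cells from losing their junctions by acting on ZEB1 and ZEB2, 3 of 6 members past the filter were parted higher, against 13.4% of all, and the family median was 0.68. miR-200b-3p had 3142, 3794 and 3882 normalized counts in replicates 1 to 3 and 8098 and 8477 in replicates 4 and 5. miR-429 and miR-200a-3p were the others (1.12 and 1.37). miR-200c-3p, from another chromosome but with the seed of miR-200b-3p, differed by 0.15 only, with 721 to 791 against 841 and 810.1.

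Among 8 miRNAs of the p53-responsive list past the filter, 3 were parted higher, against 13.4% of all 766, and the median was 0.90, against 0.07. miR-194-5p had 4180.4, 4641 and 5151 normalized counts in replicates 1 to 3 and 11252 and 12942 in replicates 4 and 5. miR-192-5p, on the same list and far more abundant, had 161130 to 162742 in replicates 1 to 3 and 139502 and 157492 in replicates 4 and 5. Its difference of -0.13 turned to 0.22 under total counts. The other 2 parted members were 3p arms of the miR-34 family, miR-34b-3p (1.42) and miR-34c-3p (1.72), while miR-34c-5p (0.32) and miR-34a-5p (0.42) were higher without overlap but under 2-fold.

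All 3 miR-29 members, which act on collagen mRNAs, were higher without overlap, and miR-29a-3p had 4649 to 5259 normalized counts in replicates 1 to 3 against 8807 and 9450.4. Under TMM factors 2 of the 3 stayed without overlap. The miR-320 family, whose hairpin is made without Drosha, went the other way: 4 of 5 members were lower without overlap, against 220 of all 766 miRNAs, the median was -0.57, and none was parted. miR-320a had 84550, 89484 and 92590.2 against 57882 and 46553. With total counts 2 of 5 were lower without overlap, and the median was -0.22. In the miR-30 family 1 of 8 was parted higher, miR-30b-5p (1.15), and 5 were lower without overlap. Its median was -0.33, and 0.02 under total counts.

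Other lists held single large differences. Among the miR-221 and miR-222 arms, miR-222-5p had 158, 148 and 103 normalized counts in replicates 1 to 3 and 18.7 and 41.2 in replicates 4 and 5, while its abundant partner miR-222-3p overlapped between the sets (-0.05). Both arms of miR-148a were parted lower, and miR-148a-3p had 3932 to 5052 against 1884 and 2190.5, a difference of -1.08. It was under 2-fold with total counts (-0.73), and was no longer parted without Input replicate 1 or 4. Of the mirtrons, hairpins spliced out as short introns, 9 of 20 listed passed the filter, with 1 parted higher and 2 lower. The lowest was miR-1224-5p, with 134, 132 and 126 in replicates 1 to 3 against 22 and 23.4. Among snoRNA-derived entries 2 of 10 were parted higher, against 13.4% of all, and the median was 0.74. The number parted was 0 with TMM factors and 6 with total counts.

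Several abundant clusters showed small differences on balance. Of 12 members of the miR-17 and miR-106b clusters, which drive the cell cycle, 0 were parted and the median was 0.07. The 9 arms of the miR-23, miR-27 and miR-24 clusters had 1 parted higher, miR-23a-3p (not parted with TMM factors, 0.94), and 1 parted lower, miR-23a-5p, with a median of -0.07 that became 0.29 under total counts. The miR-99, miR-100 and miR-125 list (5 members, median -0.01) had 0 parted, and miR-125b-5p, at 40239.6 to 48008 normalized counts against 90798 and 82757, lay just under the limit with 0.99. Its median was 0.34 under total counts. No member was parted in the miR-181 family (median 0.29), the miR-183 cluster (-0.18), the miR-103, miR-107 and miR-26 list (0.73), the miR-130 list (-0.06) or the miR-378 family (-0.17). Under total counts 2 of 3 in the miR-103, miR-107 and miR-26 list and 1 of 4 in the miR-181 family were parted higher. So were 1 of 12 in the miR-17 and miR-106b clusters and 1 of 5 in the miR-99, miR-100 and miR-125 list. The median of the miR-183 cluster was 0.17 under total counts.

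The remaining lists had 1 or 2 parted members each. In the miR-15 and miR-16 family it was miR-16-5p (1 of 6, family median 0.53), in the miR-193 and miR-365 list miR-365a-3p (1 of 5, median 0.74), and among 5 miRNAs of the HOX clusters miR-615-3p (median -0.44). In the list of hypoxia and inflammation miRNAs 2 of 9 were parted higher, against 13.4% of all 766 miRNAs, and the median was 0.15. These were miR-146a-5p and miR-155-5p, the latter no longer parted without Input replicate 2. miR-155-5p had 16.8 to 29.1 normalized counts in replicates 1 to 3 and 52.9 and 57.7 in replicates 4 and 5, and miR-146a-5p had 6.53 to 23.3 against 39.9 and 42.6. miR-210-3p, the miRNA best known for its response to hypoxia, differed by 0.23.

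Entries whose sequences resemble ribosomal RNA were higher in replicates 4 and 5 in 4 of 7 cases and lower in 1, with 3 parted higher, against 13.4% of all 766 miRNAs, and a median of 1.23. Their summed level was 130.2, 139.7 and 143 CPM in replicates 1 to 3 and 335 and 317 in replicates 4 and 5. miR-3687 alone had 757, 849 and 933 normalized counts against 2157 and 2130. Among 3 entries past the filter that resemble transfer or mitochondrial RNA, none was parted higher and miR-7977 was parted lower (-1.85). The part of such fragments in the other differences was not tested.

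Markers of other cell types were checked in the same way. Of 8 stromal and endothelial markers 6 passed the filter, and all 6 were higher in replicates 4 and 5 without overlap, 4 of them parted, against 231 and 103 of all 766 miRNAs. With TMM factors 5 of the 6 did not overlap. Their summed level was 327 to 368 CPM in replicates 1 to 3 and 526 and 547 in replicates 4 and 5, nearly all of it miR-126-3p, whose difference was 0.21 and, on the total-count scale of this sum, 0.56, and 1 marker was at 0 in all 5 libraries. miR-143-3p had 71.8 to 76.9 normalized counts against 189.6 and 191. miR-199a-5p had no count in replicates 1 to 3 and 16.3 and 17.9 normalized counts in replicates 4 and 5, at least 4.67-fold higher. It therefore passed the count filter only through replicates 4 and 5. miR-145-5p, also parted, had a mean of only 8.30 normalized counts and may have passed in the same way. It was no longer parted without Input replicate 2. Of 9 blood cell markers 1 passed the filter, miR-150-5p, which was parted higher (2.18) at 0, 9.33 and 1.01 normalized counts against 10.6 and 12.4, and their summed level was at most 2.69 CPM, with 3 at 0 in all 5 libraries. None of 9 pluripotent cell markers passed, 6 were at 0 in all 5, and their summed level was at most 0.939 CPM. Of 9 muscle, liver and neuron markers 3 passed, with 312 to 349.8 CPM against 503 and 519 and 4 at 0 in all 5. Nearly all of this sum was miR-9-5p, whose difference was 0.23 and, on the total-count scale of the sum, 0.58. With TMM factors miR-9-5p overlapped. Of the 3 that passed, miR-9-3p was parted higher, at 49.7 to 213 against 271 and 247, though not without Input replicate 1. The part of these markers in the other differences was not tested.

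The 5p and 3p arms of a hairpin are cut from the same transcript. Both arms were well covered in 76 of the hairpins that the RefSeq table holds. The arms differed in the same direction in 39 of them. In 29 both arms were without overlap in the same order and in 21 in opposite order. Both arms were parted the same way in 2 of the 76, miR-382 (1.55 and 1.80, higher) and miR-671 (-1.42 and -1.30, lower), and miR-148a, which is not among the 76, was a further such pair with median-of-ratios factors, though not under total counts. In 31 of the 76 the arms' differences were at least 1 apart, and the median gap was 0.55. Across the 76 hairpins Pearson's r between the arms' differences was 0.111, which is given as a description, since both arms were read from the same 5 libraries. In 47 of 76 the rarer arm had the lower difference. A gap between arms of a hairpin does not depend on the scaling of the libraries.

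The 4 hairpins with the widest gaps are shown with the arms not yet printed. The choice was made after their values were seen.
miR-23a-3p: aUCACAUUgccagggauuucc
miR-183-5p: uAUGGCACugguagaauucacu
miR-16-2-3p: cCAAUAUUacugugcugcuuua
miR-200a-5p: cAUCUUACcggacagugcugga
miR-200a-3p: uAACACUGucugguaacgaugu

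miR-23a-3p had 15001, 15485 and 15717 normalized counts in replicates 1 to 3 and 32584 and 30830.3 in replicates 4 and 5, a difference of 1.04, against -2.10 for miR-23a-5p. Of the counts of both arms, the 5p arm took 2.13%, 2.10% and 2.11% in replicates 1 to 3 and 0.262% and 0.222% in replicates 4 and 5. miR-183-5p was lower (-0.70) and miR-183-3p higher (1.82), and miR-183-5p took 99.6% to 99.8% of the pair in replicates 1 to 3 against 97.9% and 98.6%. The arms of miR-200a exchanged places, since miR-200a-5p took 51.1%, 66.4% and 64.9% of the pair in replicates 1 to 3 and 30.1% and 26.2% in replicates 4 and 5. miR-16-2-3p was lower (-0.83), with 2640 to 3024 normalized counts against 1457 and 1755, while miR-16-5p was higher. miR-16-5p is made from 2 hairpins, so its pairing with this arm is partial.

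**Figure D4:**
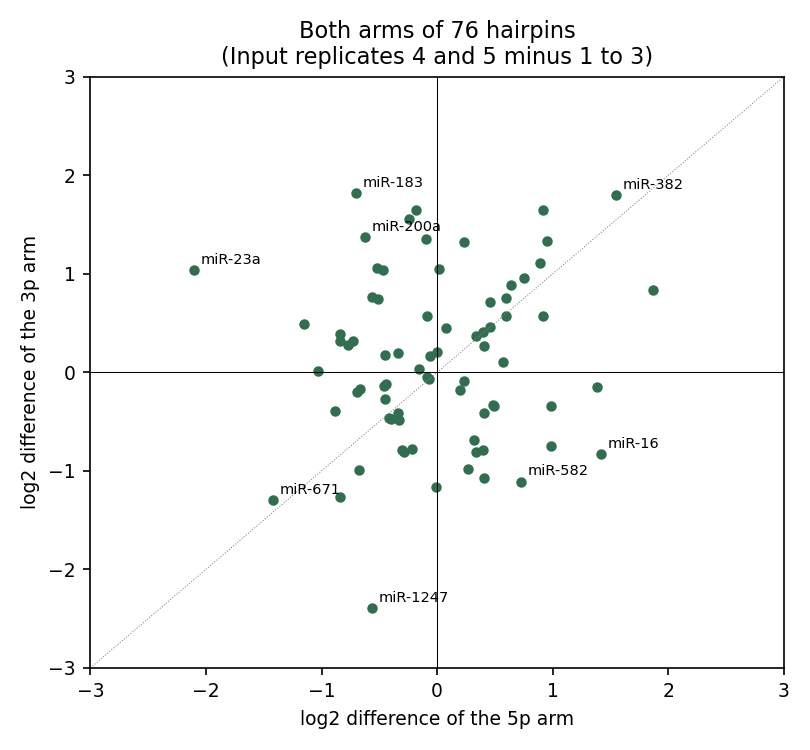
log2 difference of the 5p arm (x axis) and of the 3p arm (y axis), Input replicates 4 and 5 minus 1 to 3, for 76 hairpins with both arms well covered, 1 point per hairpin. Points spread over all corners rather than along the dotted line of equal differences (Pearson's r of 0.111), and miR-23a sits at -2.10 and 1.04.

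Base composition varied along with the differences. RefSeq sequences were matched to 684 of the 766 miRNAs (89.3%). The median GC content was 45.5% in parted-higher miRNAs, 59.1% in parted-lower ones and 52.2% in all. Among the 309 well-covered miRNAs with a sequence, the median difference was 0.18 for those under 40% GC, 0.06 and -0.07 for the middle classes and -0.18 for those at 60% or more, and r between GC content and difference was -0.200. Of the 30 well-covered parted-higher miRNAs with a sequence, 1 began with C (3.33%). Among the 29 parted-lower ones it was 11 (37.9%), against 66 of all 309 (21.4%). There was little relation of the difference with length (r of 0.0877) or level (r of -0.0523). By length, the median difference was -0.59 for the 21 well-covered miRNAs under 21 bases, 0.13 at 21 bases, -0.08 at 22 and 0.13 at 23 or more. Of the 21 short ones 15 were lower without overlap, against 138 of all 344 well-covered miRNAs. The part of base composition and length in the other differences was not tested.

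The IP libraries carry the same replicate numbers as Input, but the labels do not say whether a number marks a shared RNA preparation. Since their counts may have entered the choice of the sets, their values are set beside those of Input only as a description. In IP, replicates 4 and 5 were parted from 1 to 3 in 27.8% of the 766 miRNAs. Of the 179 miRNAs parted in Input, 138 (77.1%) had a difference of the same sign in IP, against 489 of all 766 (63.8%). Of the 66 well-covered ones it was 60 (90.9%), against 239 of all 344 well-covered miRNAs (69.5%). In 80 of the 179 the IP libraries were in the same order without overlap, in 5 in the opposite order, and in 94 they overlapped. Over all 766 these numbers were 186, 59 and 415, and the rest overlapped in Input only. Over the 344 well-covered miRNAs r between the differences in Input and IP was 0.548.

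miR-1269b was close to alike on both sides, with 439.5, 564 and 369 normalized counts in IP replicates 1 to 3 and 106 and 100.3 in IP replicates 4 and 5. let-7i-5p had 398268, 426839 and 360769.6 in IP replicates 1 to 3 and 129024 and 136682 in IP replicates 4 and 5, a difference of -1.57. miR-615-3p differed by -1.19 in IP, against -2.77 in Input. miR-494-3p had 47.8, 51.5 and 42.4 in IP replicates 1 to 3 against 202 and 211. Some members did not follow. miR-148a-5p differed by 1.15 in IP, where its libraries overlapped at 1.91 to 42.5 normalized counts. miR-21-5p, lower in Input replicates 4 and 5, was higher in IP replicates 4 and 5, with 215975 to 236892 against 286159 and 295227. Its Input libraries overlapped under total counts.

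**Figure D5:**
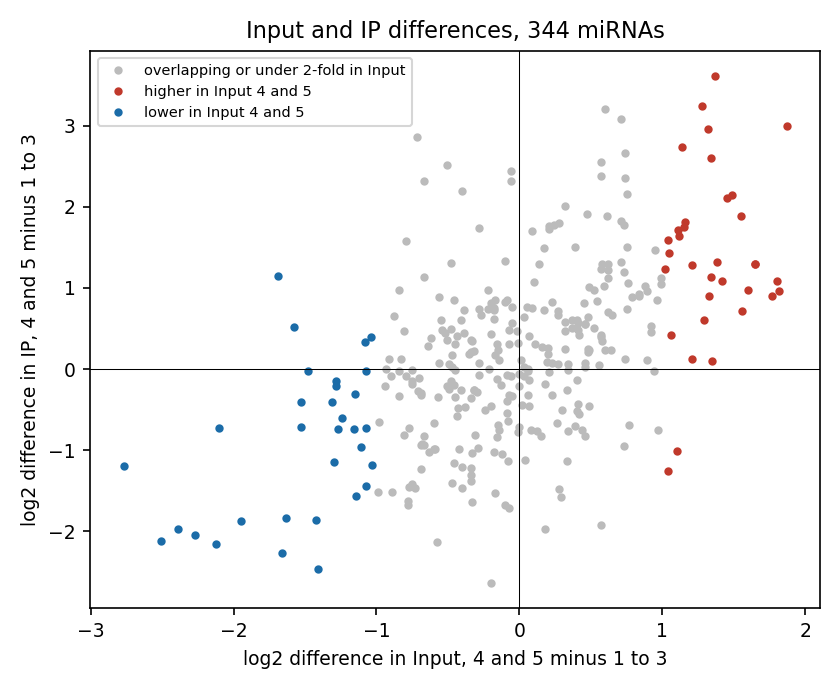
log2 difference between replicates 4 and 5 and replicates 1 to 3 in Input (x axis) and in IP (y axis) for 344 well-covered miRNAs, 1 point each. Red and blue points are those parted higher and lower in Input and grey points the others. Of the 66 coloured points 60 have the same sign on both axes, against 239 of all 344.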

How the data were processed

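Small RNA of A549 cells was sequenced before (Input) and after (IP) immunoprecipitation with an antibody against m7G, 5 libraries each, from the NEBNext kit. The table the authors deposited gives unscaled read counts for each mature miRNA, with every library in a column of its own. Per the study's methods, reads were trimmed with Trimmomatic, aligned to hg38 with STAR end to end, allowing at most 1 mismatch and 10 loci, and counted over miRBase 22 with featureCounts; the submitters' processing notes name Bowtie2 in place of STAR. Reads fitting several loci were counted at each: for 59 of the 766 miRNAs the counts of all libraries share a factor above 1. The table of the second assay was not used. The table had 0 columns without a sample.

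A minimum of 10 counts in at least 2 Input libraries was set, and the miRNAs passing it were scaled by medians of ratios, and compared on the log2(normalized count + 1) scale in Python 3.11.15 (pandas 2.3.3). SE is of the difference of the set means, from the SD pooled within sets. TMM factors came from edgeR 4.0.16 in R 4.3.3. The code was tested on simulated data. No test was run, because the sets had been chosen from these counts. The sets, the 29 lists and the alternatives were chosen with earlier results of these data known.

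The miRNAs named are the 12 with the largest parted difference in each direction at a mean of at least 100 normalized counts, the 10 most abundant, up to 4 most abundant and every parted member of each list, and 2 on each side of the 2-fold limit; hairpin partners, let-7 members and miR-543 were added after their values were seen. Alternatives were TMM, total counts with and without miR-21-5p, 2 other count filters, a pseudocount of 5, thinning to the smallest library, a fold minimum of 1.5 and leaving out each library; the restriction to a mean of at least 100 was added after seeing the data. Depth was 7097379 to 14874685 counts per Input library; without molecular identifiers, intervals and limits cover counting error only.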

Additional observations from a re-analysis of the deposited data

Results flagged for a closer look

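Among 184 groups of 5 libraries looked at with Dixon's criterion, 2 held a library far from the others. The rate of about 1 in 20 by chance holds for libraries of a uniform group. Here a gap between the 2 sets can hide a single far library, so the number found cannot be set against that rate. miR-192-5p had 139502 normalized counts in Input replicate 4, below the other 4 libraries. miR-758-3p had 11.7 normalized counts in IP replicate 5, above the other 4.

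For 16 of the named miRNAs the Input libraries of the sets did not overlap in one direction and the IP libraries did not overlap in the other. These differences between Input and IP were not tested, and the Input order of many depends on the scaling. With total counts miR-182-5p and miR-664a-5p turned to higher (0.17 each), and miR-21-5p, miR-26a-5p, miR-30d-5p, miR-200a-5p, miR-30a-3p and miR-106b-3p overlapped. With TMM factors miR-200c-3p, miR-29c-3p and miR-877-3p overlapped. miR-370-3p, miR-503-5p, miR-221-5p, miR-30c-5p and miR-424-5p stayed without overlap in the same order under all 4 scalings of Input. miR-370-3p, from the 14q32 cluster, was lower in Input replicates 4 and 5 by a log2 difference of -0.67 but had 2099, 1917 and 2027 normalized counts in IP replicates 1 to 3 and 10177 and 9928 in IP replicates 4 and 5. miR-26a-5p differed by -0.28 in Input and 1.74 in IP, and miR-21-5p by -0.51 and 0.36. The other miRNAs lower in Input and higher in IP were miR-200a-5p (-0.62 in Input), miR-30d-5p (-0.55), miR-503-5p (-0.49), miR-30a-3p (-0.27), miR-106b-3p (-0.18), miR-182-5p (-0.18) and miR-664a-5p (-0.18). Those higher in Input and lower in IP were miR-877-3p (0.57 in Input), miR-30c-5p (0.41), miR-424-5p (0.34), miR-221-5p (0.29), miR-29c-3p (0.23) and miR-200c-3p (0.15). miR-29c-3p had a count of 0 in IP replicates 4 and 5, and at most 22.9 normalized counts in IP replicates 1 to 3.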

How the results depend on the processing

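No paired analysis was made, since no test was run and the labels do not say whether a replicate number marks a shared RNA preparation. Each library's deviations from the mean of its set were compared between Input and IP. Their r was -0.109 to 0.096 for libraries of the same number, against -0.225 to 0.182 for other numbers of the same set. The 103 miRNAs parted higher became 169 with total-count factors, 200 with a filter of 1 count in any library, 168 with a fold minimum of 1.5, 61 with 10 counts in all 5 libraries and 34 with a mean of at least 100 normalized counts. The 76 parted lower became 44, 112, 140, 50 and 32 under the same settings. With TMM factors they were 86 and 88, and with total counts without miR-21-5p 143 and 52. The median difference across the sets (0.650) was 0.713 with total counts, 0.674 with total counts without miR-21-5p, 0.80 with 1 count in any library, 0.536 with 10 counts in all 5, 0.508 at a mean of at least 100, 0.588 with a pseudocount of 5 and 0.602 after thinning. Within a set (0.313) it was 0.402, 0.208 and 0.156 under the 3 filters in that order. The share of parted miRNAs with the same sign in IP (77.1%) was 62.5%, 87.4% and 90.9% under these filters. Leaving out each Input library in turn gave 91 to 119 higher, 74 to 87 lower, medians of 0.601 to 0.654 across and 0.265 to 0.296 within the sets, and a share of 70.4% to 78.4%. Stricter filters leave fewer miRNAs by construction, and the cause of the other changes was not tested. No named parted miRNA changed sign under any of these settings. They had been chosen for a difference of at least 1, and total counts shifted the median by 0.35, so a change of sign was unlikely from the start. Of 72 of them, 7 were no longer parted with TMM factors and 3 with total counts, among these let-7i-5p. Leaving out 1 library ended the parting of 4 to 8, among them miR-889-3p and miR-337-3p without replicate 1, miR-654-3p without replicate 2 or 5, miR-429 without replicate 3 or 4 and miR-29b-3p without replicate 3 or 5. Low counts limit the miRNAs under about 10 counts in one set, and 2 libraries in a set give little hold on their spread.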
